A study of Mus musculus with 6 samples.

Results

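The genes described here are 10 transcripts of neutrophil granules, taken by symbol from the 51826 genes of the deposited table. Of these, 8 encode proteins that neutrophils make late in their maturation (Lcn2, Mmp8, Mmp9, Camp, Ngp, Ltf, S100a8 and S100a9) and 2 encode proteins of the early, or primary, granules (Mpo and Elane). All 10 were found and all 10 passed the filter on low counts. The RNA came from mouse bone marrow cells sorted as CD34-negative KSL, that is, carrying Kit and Sca-1 but no lineage marker, a fraction rich in long-term hematopoietic stem cells. The compared groups were 4 libraries from Elovl6 knockout (KO) mice and 2 libraries from wild-type (WT) mice. Elovl6 lengthens fatty acids of the palmitate class. The labels give neither the age or sex of the mice nor the part of Elovl6 that was removed, and do not say whether each library stems from its own animal. A p-value here therefore covers only the spread between the sequenced libraries.

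Neutrophils form their granules in an ordered sequence. Myeloperoxidase and the serine proteases of the primary granules are made at the promyelocyte stage, the proteins of the secondary granules at the myelocyte stage, and gelatinase later still, while the calcium-binding S100 proteins accumulate in the cytosol. Transcription factors of the C/EBP family and PU.1 act in this programme. Long-term stem cells are not known for making late granule proteins, and the lineage antibodies used to sort KSL cells normally remove granulocytes.

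The promoters of several of these genes are shown because the transcripts varied together between libraries. The sequences are RefSeq's, in the build GRCm38.p6, the reference assembly that the name mm10 denotes, and are read 5′ to 3′ on the strand of the gene. Capitals mark matches on either strand to TTNNGNAA, a pattern of the C/EBP family, or to GAGGAA, a core bound by PU.1 and other ETS factors. Bases inside the deposited gene interval are left out.
Ltf: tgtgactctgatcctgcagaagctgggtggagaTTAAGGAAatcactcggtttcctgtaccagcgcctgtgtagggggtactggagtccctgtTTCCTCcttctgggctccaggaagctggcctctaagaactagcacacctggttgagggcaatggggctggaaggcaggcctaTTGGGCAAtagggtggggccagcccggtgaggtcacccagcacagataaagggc
Ngp: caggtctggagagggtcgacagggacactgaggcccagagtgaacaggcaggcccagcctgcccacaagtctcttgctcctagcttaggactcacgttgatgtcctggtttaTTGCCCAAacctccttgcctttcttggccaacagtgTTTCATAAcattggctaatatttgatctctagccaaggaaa
S100a9: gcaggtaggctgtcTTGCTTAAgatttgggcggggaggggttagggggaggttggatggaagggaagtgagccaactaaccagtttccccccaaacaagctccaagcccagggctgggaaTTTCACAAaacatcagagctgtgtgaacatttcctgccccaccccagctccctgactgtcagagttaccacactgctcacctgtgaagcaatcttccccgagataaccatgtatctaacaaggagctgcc
Mpo: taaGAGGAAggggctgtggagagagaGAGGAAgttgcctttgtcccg
These lie at chr9:111019042-111019270 on the plus strand (Ltf), chr9:110419558-110419746 on the plus strand (Ngp), chr3:90695722-90695971 on the minus strand (S100a9) and chr11:87793534-87793580 on the plus strand (Mpo). Promoters were listed for 9 of the 10 genes (Mmp9 had no entry). Counted over all 250 bases before the RefSeq start, including bases inside the deposited gene interval that are not printed, 6 of the 7 late promoters held TTNNGNAA (for Lcn2 the whole window lies inside that interval), as did 36.8% of 32851 mouse promoters of the same length. GAGGAA was in 4 of the 7 late promoters and in both early ones, and in 23.3% of all promoters. The promoters of Mpo and Elane held no TTNNGNAA. The matches of the 2 patterns did not overlap in the printed sequences, and a match is a run of letters only, not a binding site.

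One library stood apart. KO 4 had the lowest depth, 2121240 counts assigned to genes, against 2816248 to 5137628 in the other KO libraries and 3569449 and 3812524 in WT, and the highest ratio of intron to exon reads over all genes, 173 per 100, against 91.9 to 143 in the other KO libraries and 107 and 122 in WT. It was the highest of the 6 libraries for all 10 granule genes. The same held for 18.9% of all tested genes. Elovl6 itself had 106, 61, 56 and 18 counts in KO 1 to KO 4, against 111 and 147 in WT 1 and WT 2 (log2 fold change -1.12, SE 0.32, adjusted p = 0.346, edgeR). The fold changes of the granule genes are therefore given with and without KO 4. KO 4 was singled out partly by these same genes, so a lower change without it was fixed in advance. P-values from the fit without KO 4 are therefore not independent support for a change. In bulk samples, fewer cells of a type and less RNA per cell cannot be told apart. Levels are given as CPM, counts scaled to a common total per library with trimmed-mean (TMM) factors.

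The granule transcripts differed between libraries of the same genotype by more than they differed between genotypes. The summed level of the 8 late genes was 218, 1278, 55.9 and 7058 CPM in KO 1 to KO 4, against 828 and 119 CPM in WT 1 and WT 2. KO and WT libraries overlapped, with KO 3 the lowest and KO 4 the highest of all. The mean was 2152 ± 3315 CPM in KO (SD, n = 4) and 474 ± 501 CPM in WT (SD, n = 2), and without KO 4 the KO mean was 517 CPM. As a share of the counts of a library, the late genes took 0.680% in KO 4 (95% exact binomial interval 0.669% to 0.691%) and 0.00568% in KO 3 (0.00484% to 0.00663%). These intervals cover counting error only.

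None of the 10 genes passed the test of KO against WT. In edgeR's quasi-likelihood test, 0 of the 10 had an adjusted p under 0.05, where 0.159% of the 11969 tested genes did (19 genes): 0 members were called higher in KO, against 0.0919% of tested genes, and 0 lower, against 0.0668%. DESeq2 called 0 of 9 with an adjusted p (0.727% of all genes) and limma-voom 0 of 10 (0.0752%). The single member with an unadjusted p under 0.05 was Mmp8, against 9.9% of tested genes. KO and WT libraries overlapped in each of the 10 genes, so 0 of 10 had separate groups, against 20.3% of tested genes. The fitted change of the 8 late genes was above 0 in all 8, with a median of 2.20 on the log2 scale and standard errors of 1.40 to 1.81. The median change over all tested genes was 0.0085 and the median standard error 0.24. Without KO 4, the 7 late genes still tested had a median of 0.22, and 4 of them were above 0. Their standard errors ran from 0.88 (Ltf) to 1.32 (Mmp9), so these changes near 0 are only loosely estimated. In that fit 0 of the 9 members fitted passed, against 0.254% of all genes. The median of the late genes was 0.64 with limma-voom (range 0.29 to 2.07), which weights libraries by their quality, and 0.77 without KO 3 and KO 4 (range 0.31 to 2.33). Without any filter on low counts, all 8 late genes passed (adjusted p from 6.88e-06 to 0.00231, edgeR), as did 1.69% of the 18189 genes then fitted. In that fit the prior degrees of freedom, which set how far each gene's spread is pulled to the common trend, were estimated at 157 instead of 6.67, and the standard errors of Lcn2 and Mmp8 were 0.45 and 0.68 instead of 1.58 and 1.81.

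**Figure D1:**
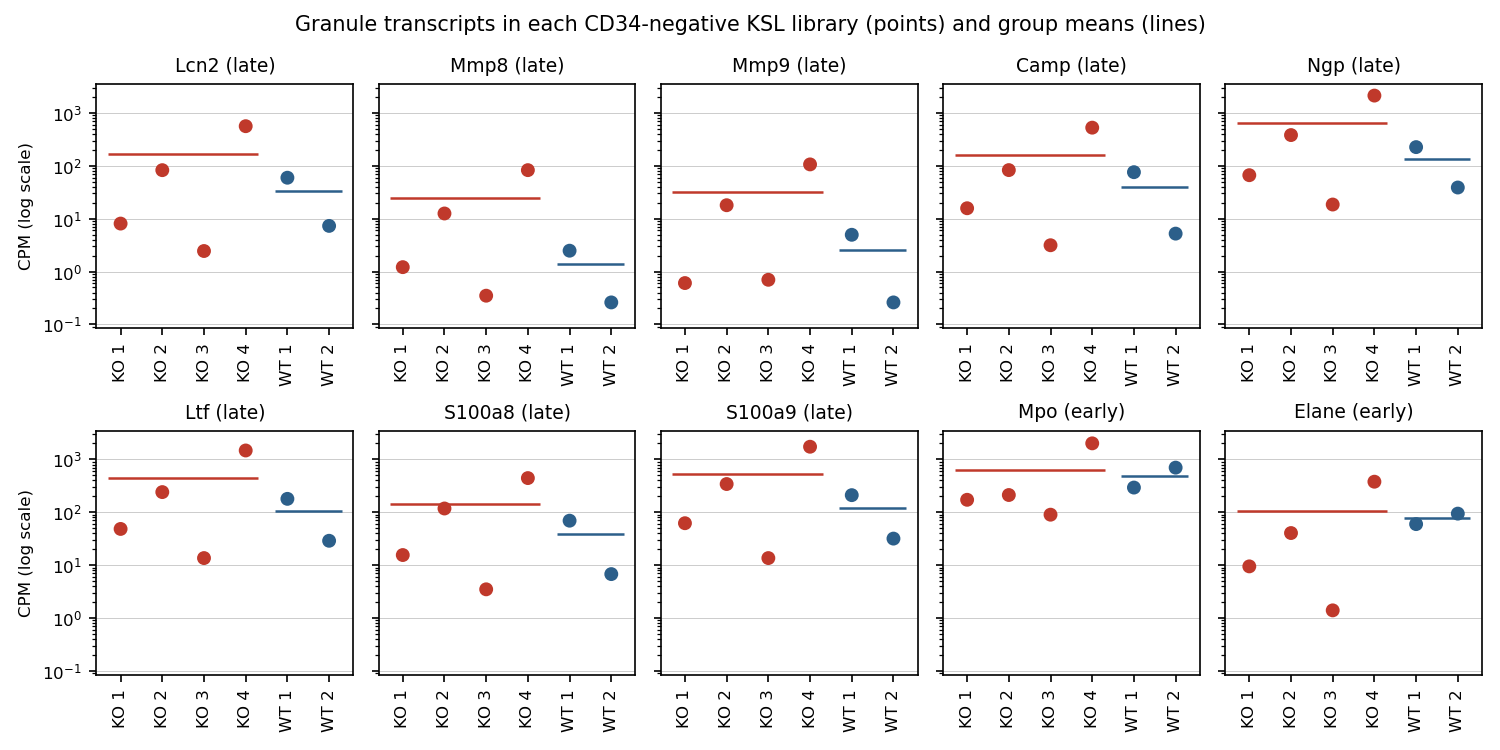
Each panel plots 1 granule gene in CPM (log scale) by library, KO 1 to KO 4 in red left of WT 1 and WT 2 in blue, with a line at each group's mean. KO 4 is the highest point in all 10 panels, and the KO and WT points overlap in each.

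The primary granule genes come first in the sequence of granule formation. Mpo encodes myeloperoxidase, which makes hypochlorous acid from hydrogen peroxide and chloride (ENSMUSG00000009350, chromosome 11, 87793581 to 87804413, mm10). Its level was 172, 212, 90.1 and 2012 CPM in KO 1 to KO 4, against 293 and 699 CPM in WT 1 and WT 2. Except for KO 4, each KO library lay below both WT libraries. The mean was 622 ± 928 CPM in KO (SD, n = 4), or 158 ± 62.2 CPM without KO 4 (SD, n = 3), and 496 ± 287 CPM in WT (SD, n = 2). The log2 fold change of KO over WT was 0.32 (SE 1.00, adjusted p = 0.940, edgeR quasi-likelihood test). Without KO 4 it was -1.64 (SE 0.36, unadjusted p = 7.32e-04, adjusted p = 0.148, edgeR), so the direction turned and the threshold was still not reached. KO 4 was the highest library for Mpo, so leaving it out had to lower the change and the spread in KO. Uniquely placed reads made up 80.5% of the exon reads of Mpo and 100% of those of the other 9 genes.

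Elane encodes neutrophil elastase, a serine protease of the same granules (ENSMUSG00000020125, chromosome 10, 79886247 to 79888215). Its level was 9.48, 40.5, 1.40 and 379 CPM in KO 1 to KO 4, against 59.7 and 94.3 CPM in WT 1 and WT 2. As for Mpo, the order from high to low was KO 4, WT 2, WT 1, KO 2, KO 1 and KO 3. The value in KO 3 rests on 4 counts. Its mean was 108 ± 182 CPM in KO (SD, n = 4), or 17.1 ± 20.6 CPM without KO 4 (SD, n = 3), and 77.0 ± 24.4 CPM in WT (SD, n = 2). KO over WT gave a log2 fold change of 0.43 (SE 1.29, adjusted p = 0.935, edgeR) with all libraries and -2.11 (SE 0.70, adjusted p = 0.333, edgeR) without KO 4. The ratio of Mpo to Elane counts was 18.2, 5.24, 64.5 and 5.31 in KO 1 to KO 4, against 4.91 and 7.41 in WT 1 and WT 2. Mpo thus stayed present in the libraries where Elane was scarce.

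Among the secondary granule genes the highest level was that of Ngp, which encodes a neutrophil granule protein related to cathelicidins (ENSMUSG00000032484, chromosome 9, 110419747 to 110423012). Ngp was at 66.4, 381, 18.5 and 2126 CPM in KO 1 to KO 4, against 225 and 38.8 CPM in WT 1 and WT 2. KO 4 and KO 2 were above both WT libraries, KO 1 was between them and KO 3 was below both. The mean was 648 ± 999 CPM in KO (SD, n = 4), or 155 CPM without KO 4, and 132 ± 132 CPM in WT (SD, n = 2). For Ngp the log2 fold change was 2.29 (SE 1.46, adjusted p = 0.629, edgeR) and 0.25 without KO 4. Ltf encodes lactotransferrin, an iron-binding protein that withholds iron from microbes (ENSMUSG00000032496, chromosome 9, 111019271 to 111042767). It was at 48.4, 241, 13.6 and 1475 CPM in KO 1 to KO 4, against 179 and 28.9 CPM in WT 1 and WT 2. The libraries stood in the same order as for Ngp. Its log2 fold change was 2.08 (SE 1.43, adjusted p = 0.664, edgeR) and -0.03 without KO 4.

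Camp encodes cathelicidin, the precursor of an antimicrobial peptide (ENSMUSG00000038357, chromosome 9, 109847379 to 109849617), and so lies on the same chromosome as Ngp and Ltf. Camp was at 15.7, 82.9, 3.14 and 526 CPM in KO 1 to KO 4, against 75.7 and 5.21 CPM in WT 1 and WT 2. KO 2 and WT 1 were close to each other, and KO 3 and WT 2 were both low. Its log2 fold change was 1.93 (SE 1.49, adjusted p = 0.705, edgeR) and -0.22 without KO 4. Lcn2 encodes lipocalin 2, which binds bacterial siderophores (ENSMUSG00000026822, chromosome 2, 32384633 to 32388252). It was at 8.07, 82.7, 2.44 and 561 CPM in KO 1 to KO 4, against 59.5 and 7.29 CPM in WT 1 and WT 2. KO 1 and WT 2 were nearly level. For Lcn2 the log2 fold change was 2.26 (SE 1.58, adjusted p = 0.669, edgeR) and -0.07 without KO 4.

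The matrix metalloproteases were the scarcest members and gave the widest fitted changes. Mmp8, the neutrophil collagenase (ENSMUSG00000005800, chromosome 9, 7558456 to 7568485), had 6, 60, 1 and 169 counts in KO 1 to KO 4, against 9 and 1 in WT 1 and WT 2. That is 1.21, 12.5, 0.349 and 82.7 CPM in KO 1 to KO 4, against 2.48 and 0.260 CPM in WT 1 and WT 2. Its reads came mostly from KO 2 and KO 4, and it missed the filter on low counts when either of these was left out, so it could not be fitted with KO 4 alone left out. With KO 3 and KO 4 both left out it passed the filter, and the log2 fold change was 2.33 (SE 1.16, adjusted p = 0.591, edgeR). The log2 fold change was 4.05 (SE 1.81, unadjusted p = 0.0474, adjusted p = 0.501, edgeR). In the authors' deposited table Mmp8 has a signed fold of 17.03, positive where KO is higher, with an unadjusted p of 0.0336 and an adjusted p of 1. Mmp9, gelatinase B of the tertiary granules (ENSMUSG00000017737, chromosome 2, 164940780 to 164955850), had 3, 86, 2 and 217 counts in KO 1 to KO 4, against 18 and 1 in WT 1 and WT 2. Again KO 2 and KO 4 were above both WT libraries, and KO 1 and KO 3 lay between them. For Mmp9 the log2 fold change was 3.51 (SE 1.78, adjusted p = 0.560, edgeR) and 1.34 without KO 4.

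S100a8 and S100a9 encode the subunits of calprotectin, a calcium- and zinc-binding complex of the neutrophil cytosol. They lie next to each other on chromosome 3 (ENSMUSG00000056054, 90668978 to 90670035, and ENSMUSG00000056071, 90692632 to 90695721). S100a8 was at 15.5, 118, 3.49 and 443 CPM in KO 1 to KO 4, against 69.4 and 6.77 CPM in WT 1 and WT 2. S100a9 was at 62.1, 342, 13.6 and 1737 CPM in KO 1 to KO 4, against 211 and 31.8 CPM in WT 1 and WT 2. Both followed the order of Ngp. Their log2 fold changes were 1.90 (SE 1.40, adjusted p = 0.691, edgeR) and 2.14 (SE 1.44, adjusted p = 0.652, edgeR), and 0.29 and 0.22 without KO 4. S100a9 counts exceeded S100a8 counts in every library, by 4.00, 2.90, 3.90 and 3.92 times in KO 1 to KO 4, against 3.04 and 4.69 times in WT 1 and WT 2.

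**Figure D2:**
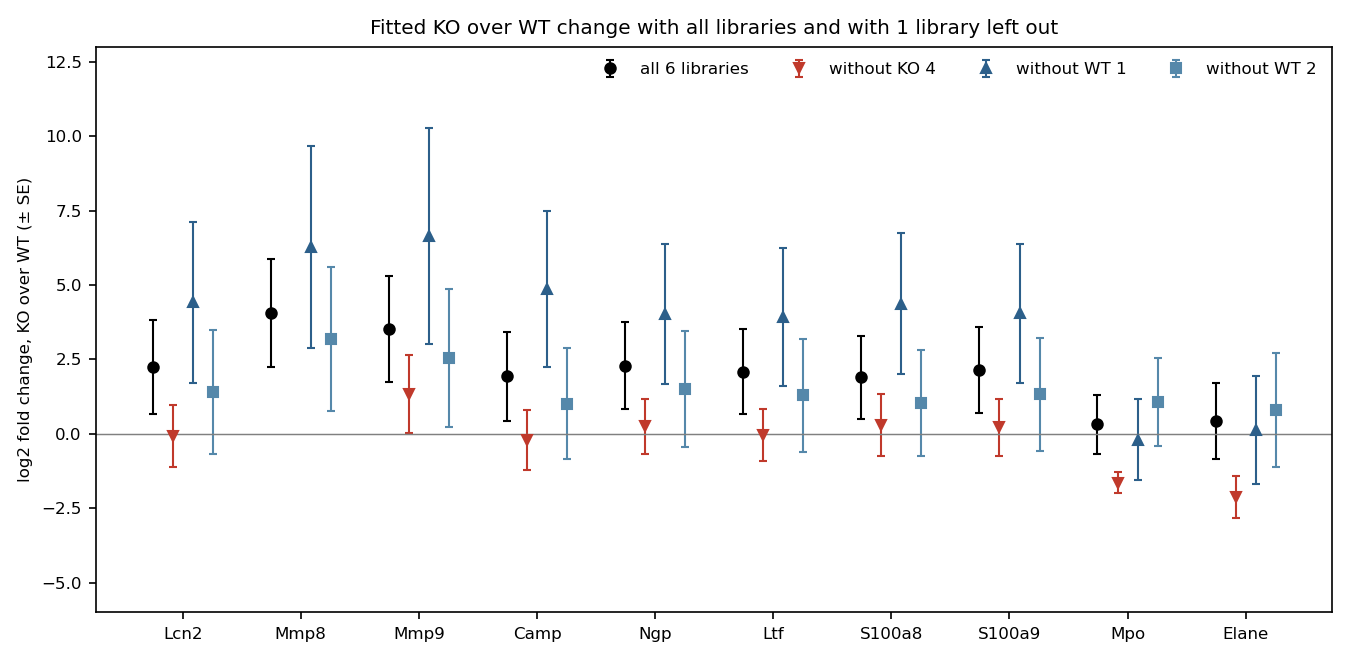
Points give the log2 fold change of KO over WT from edgeR for each gene, with bars of 1 standard error, for all 6 libraries (black circles), without KO 4 (red triangles), without WT 1 (dark blue triangles) and without WT 2 (light blue squares). Without KO 4 the late genes sit near 0, except Mmp9 at 1.34, but with wide bars (standard errors of 0.88 to 1.32), and Mmp8 has no point. Mpo and Elane fall to -1.64 and -2.11.

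The size of the change also depended on each WT library, since the late genes were lower in WT 2 than in WT 1 in 8 of 8 cases and Mpo and Elane higher in both cases. Without WT 1 the median log2 fold change of the late genes was 4.4, and without WT 2 it was 1.37. In neither fit did a member pass the threshold. The spread of the members within genotypes was among the widest of the genome. Their tagwise dispersions in edgeR, a measure of variance beyond counting noise, ran from 0.562 for Mpo to 1.27 for Mmp9, against a median of 0.0420 over all tested genes. The 10 genes lay at percentiles 98.7 to 99.9 of the dispersions of tested genes.

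While the level of the late genes moved over a wide range, the proportions of the most abundant ones moved far less. All 8 late genes had KO 4 first, KO 2 next and WT 1 after it, and 6 of the 8 shared the whole order KO 4, KO 2, WT 1, KO 1, WT 2 and KO 3. The exceptions were Mmp8 and Mmp9, whose low libraries held 1 to 6 counts. Ngp was 115-fold and Lcn2 230-fold higher in KO 4 than in KO 3. Yet Ngp made up between 27.2% (95% exact binomial interval 25.7% to 28.9%, WT 1) and 33.1% (25.9% to 41.0%, KO 3) of the late granule counts of a library. S100a9 made up 24.4% (17.9% to 31.8%, KO 3) to 28.5% (25.8% to 31.3%, KO 1). Ltf made up 18.8% (17.9% to 19.9%, KO 2) to 24.4% (17.9% to 31.8%, KO 3). The KO 3 intervals are wide, and some intervals of libraries with more counts did not overlap. For Ngp the interval was 29.4% to 30.9% in KO 4, above that of WT 1. For Ltf it was 20.2% to 23.2% in WT 1, above that of KO 2. For S100a9 it was 23.9% to 25.3% in KO 4, below that of KO 1. Shares of the smaller genes moved more: Lcn2 took 3.7% (2.66% to 5.0%) in KO 1 and 7.95% (7.51% to 8.40%) in KO 4. Camp took 4.37% (2.69% to 6.66%) in WT 2 and 9.15% (8.14% to 10.2%) in WT 1. The shares of the metalloproteases moved most, with 1.17% in KO 4 against 0.218% in WT 2 for Mmp8 (5.37 times) and 1.5% in KO 4 against 0.218% in WT 2 for Mmp9 (6.89 times). The interval of Mmp9 was 0.0573% to 0.809% in KO 1 and 1.31% to 1.72% in KO 4, and these did not overlap.

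**Figure D3:**
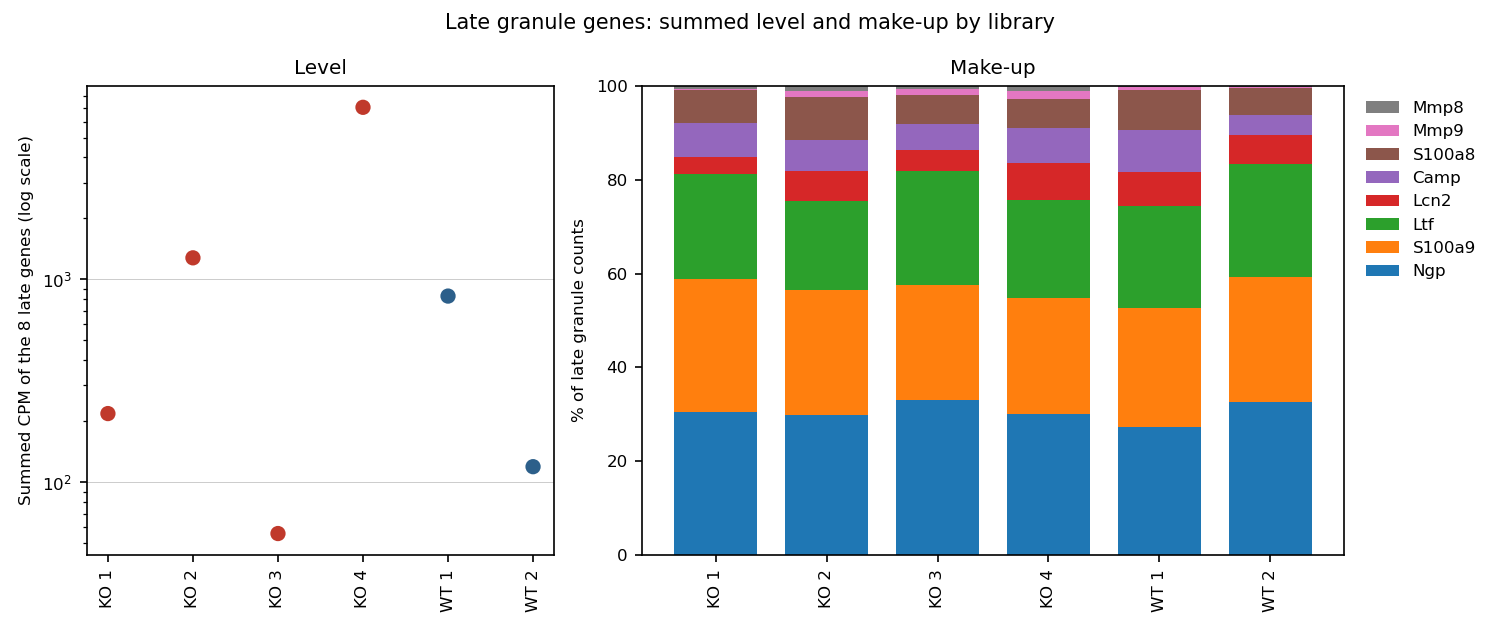
The left panel plots the summed CPM of the 8 late genes on a log scale by library, KO (red) left of WT (blue), and the right panel stacks the percentage of those counts that each gene gives. The sum runs from 55.9 CPM in KO 3 to 7058 CPM in KO 4, while Ngp stays between 27.2% and 33.1% of it.

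Early and late granule genes did not keep 1 ratio. The summed level of Mpo and Elane was 182, 253, 91.5 and 2391 CPM in KO 1 to KO 4, against 353 and 793 CPM in WT 1 and WT 2. Early counts were 0.833, 0.198, 1.64 and 0.339 times the late counts in KO 1 to KO 4, against 0.427 and 6.65 times in WT 1 and WT 2. WT 2 thus held mostly early transcripts, with 3045 early against 458 late counts, and KO 2 mostly late ones, with 1210 early against 6122 late counts. These ratios overlap between genotypes except for WT 2, which lies above all other libraries.

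**Figure D4:**
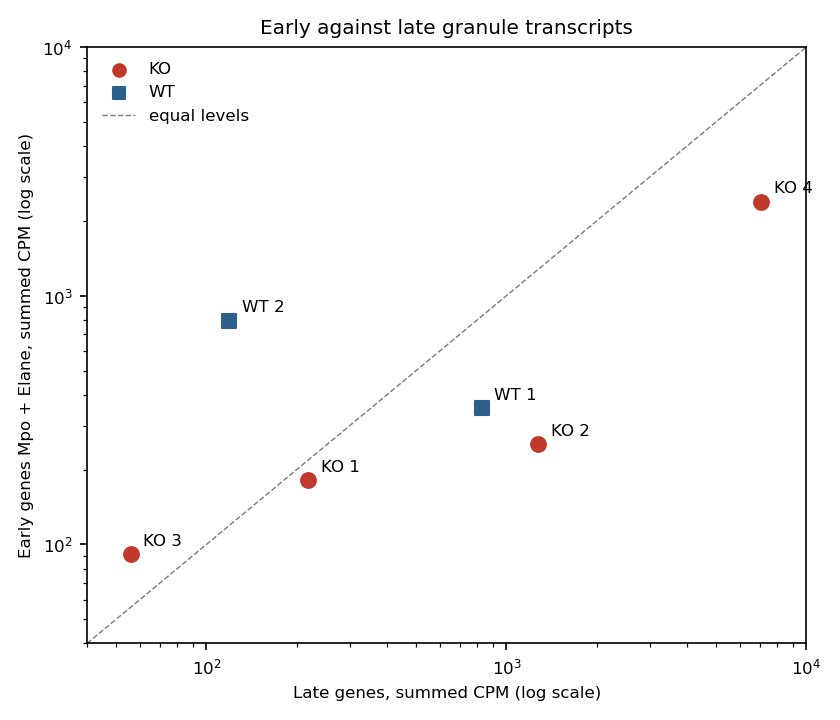
Each point is 1 library, with the summed CPM of the 8 late genes on the x axis and of Mpo and Elane on the y axis, both on log scales, KO as red circles and WT as blue squares. WT 2, at 119 CPM late and 793 CPM early, stands farthest above the line of equal levels. KO 3 is also above it, and KO 1, KO 2, KO 4 and WT 1 are below it.

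Per length of transcript, the order of the members can be read from the authors' RPKM values. The median over the 4 KO libraries was 122 RPKM for S100a9, 57.6 for Ngp, 30.2 for S100a8, 22.5 for Mpo, 20.5 for Camp, 13.2 for Ltf, 8.01 for Elane, 5.43 for Lcn2, 0.890 for Mmp8 and 0.822 for Mmp9. The ranges over the KO libraries overlapped for every pair of neighbours in this order. Within libraries some pairs kept their order: S100a9 was above Ngp, Ngp above S100a8, Elane above Lcn2 and Lcn2 above Mmp8 in 6 of 6 libraries, while Mpo was above S100a8 in 5 of 6. The gene with the highest level also changed with the library. Mpo was above S100a9 in KO 3, at 7.92 against 6.28 RPKM, and in WT 2, at 69.5 against 17.03 RPKM, and Elane too was above S100a9 in WT 2. Among the early genes, Mpo exceeded Elane in every library, for example at 130 against 68.3 RPKM in KO 4 and at 69.5 against 26.8 RPKM in WT 2. On this scale the summed late level was 76.4, 425, 13.4 and 1262 RPKM in KO 1 to KO 4, against 275 and 33.7 RPKM in WT 1 and WT 2. The order of libraries was that of the CPM sums, but the distance between KO 4 and the others was smaller.

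Reads of the granule genes lay in exons. For the late genes, 2.31, 3.09, 0.625 and 2.02 intron reads were placed per 100 unique exon reads in KO 1 to KO 4, against 2.76 and 2.18 in WT 1 and WT 2. The value in KO 3 rests on 1 intron read. Over all genes the figure was 91.9, 116, 143 and 173 in KO 1 to KO 4, against 107 and 122 in WT 1 and WT 2, so that KO 4 was the highest. These figures also depend on intron length, for which no adjustment was made, so members and all genes are not directly comparable. Junction-spanning reads were 34.6% to 39.1% of the unique exon reads of the late genes in KO, and 35.7% and 39.5% in WT. The corresponding range over all genes was 26.8% to 28.1% in KO, and 27.9% and 28.1% in WT. Reads of Mpo and Elane likewise held few from introns, 0.663 to 2.69 per 100 unique exon reads in KO, and 0.157 and 0.860 in WT. The value in WT 1 rests on 2 intron reads.

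Other granule genes, listed from general knowledge, gave no call either. Of the 22 late granule companions, 21 were in the table and 14 were tested. In edgeR 0 rose and 0 fell (0.159% of all tested genes passed), 4 had an unadjusted p under 0.05 (9.9% of all tested genes), and the median log2 fold change was 2.15. Without KO 4, 12 were tested, 0 passed (0.254% of the 11800 genes then tested), 0 had an unadjusted p under 0.05 (10.9% of those genes) and the median was 0.42. The medians 2.15 and 0.42 cover different sets of genes, since some companions passed the filter on low counts only with KO 4. Scarce companions could pass it through KO 2 and KO 4 alone, which can raise the median of 2.15. KO 4 was the highest library for all 14 tested, as it was for 18.9% of tested genes. Chil3, a chitinase-like protein of neutrophils and macrophages, was at 7.06, 66.0, 1.75 and 327 CPM in KO 1 to KO 4, against 39.4 and 2.60 CPM in WT 1 and WT 2. Its libraries ranked as those of the late members at the top, with KO 4, KO 2 and WT 1 leading. Anxa1, which encodes annexin A1, and Itgb2, the common beta chain of leukocyte integrins, were present in all libraries. Anxa1 had a log2 fold change of 0.65 (SE 0.41, adjusted p = 0.625, edgeR), and 0.12 without KO 4. Itgb2 had one of 0.67 (SE 0.43, adjusted p = 0.630, edgeR), and 0.16 without KO 4. Ptx3, named after its values were seen, had 0 counts in all 6 libraries.

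Of the 10 primary granule companions, 9 were tested, with 0 calls in either direction, 1 unadjusted p under 0.05 (9.9% of all tested genes) and a median log2 fold change of 0.0945. Without KO 4 there were again 0 calls, with 4 of 9 unadjusted p-values under 0.05 (10.9% of all genes in that fit) and a median of -0.31. KO 4 was the highest library for 7 of the 9 with all libraries, so these p-values are not independent support for a change. Bpi, also named after its values were seen, had 0 counts in all 6 libraries. Prtn3, the serine protease proteinase 3, was at 59.5, 72.0, 74.3 and 223 CPM in KO 1 to KO 4, against 94.7 and 134 CPM in WT 1 and WT 2. As with Mpo, KO 4 was the highest and the other KO libraries lay below both WT libraries. Its log2 fold change was -0.12 (SE 0.45, adjusted p = 0.952, edgeR), and -0.74 without KO 4 (SE 0.19, adjusted p = 0.217, edgeR). Lyz2, the lysozyme of myeloid cells, was at 182, 271, 182 and 896 CPM in KO 1 to KO 4, against 263 and 236 CPM in WT 1 and WT 2. Srgn, the granule proteoglycan serglycin that many blood cells make, had KO 4 as its lowest library, at 343 CPM against 353 to 417 CPM in the other KO libraries and 366 and 428 CPM in WT.

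Regulators of granulocyte formation gave no call. Of 12 transcription factors, all were tested, 0 passed in either direction (0.159% of all tested genes), 3 had an unadjusted p under 0.05 (9.9% of all tested genes) and the median log2 fold change was 0.37, or 0.16 without KO 4. Myb, needed for definitive blood formation, was at 720, 711, 787 and 762 CPM in KO 1 to KO 4, against 631 and 668 CPM in WT 1 and WT 2 (log2 fold change 0.20, SE 0.12, adjusted p = 0.616, edgeR; 0.18 without KO 4). Spi1, the gene of PU.1, was at 101 to 152 CPM in KO, against 135 and 123 CPM in WT 1 and WT 2 (log2 fold change -0.11, SE 0.18, adjusted p = 0.869, edgeR; -0.25 without KO 4). Runx1 was at 177 to 238 CPM in KO, against 187 and 200 CPM in WT 1 and WT 2. These levels moved within a far narrower range than those of the granule genes. Cebpe, the C/EBP factor of secondary granule genes, was chosen for mention after its values were seen. It was at 0, 6.68, 0.349 and 21.5 CPM in KO 1 to KO 4, against 6.88 and 1.56 CPM in WT 1 and WT 2. Its high libraries, KO 4, WT 1 and KO 2, were those of the late granule genes. The other C/EBP genes of the list did not share all of these. Cebpa was highest in WT 2 and lowest in WT 1, and Cebpb was highest in KO 1. Cebpd was highest in KO 4 and next in WT 1, but lower in KO 2 than in both WT libraries. A part of C/EBP factors in the level of the granule genes was not tested. Of 10 growth factor and chemokine receptors 0 passed (0.159% of all tested genes), 2 had an unadjusted p under 0.05 (9.9% of all tested genes) and the median was 0.43, or 0.23 without KO 4. Csf3r, the receptor of granulocyte colony-stimulating factor, was at 93.2, 105, 135 and 150 CPM in KO 1 to KO 4, against 151 and 122 CPM in WT 1 and WT 2. For Cxcr4, the receptor of the chemokine CXCL12, the log2 fold change was 0.58 (SE 0.21, adjusted p = 0.427, edgeR), and 0.49 without KO 4. For Csf2rb, a shared chain of cytokine receptors, it was 0.14 (SE 0.18, adjusted p = 0.833, edgeR), and 0.17 without KO 4.

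Genes outside these lists with the profile closest to the mean of the late members were C3, Clec5a, Itgb2l, Fcnb, Abca13, Mcemp1, Sgms2 and Pilra. Likeness was the Euclidean distance over the 6 libraries between centred log2 CPM profiles. It was 0.924 for C3 and 2.27 for Pilra, where members themselves lay at 0.403 to 1.45 and the median of 11265 candidates at 5.82. C3, complement component 3, was at 9.68, 72.6, 4.19 and 471 CPM in KO 1 to KO 4, against 67.2 and 10.7 CPM in WT 1 and WT 2. Closest to the mean of Mpo and Elane were Plbd1, Rhd, Rab44, Ank1, Trem3, Add2, Aldh3b1 and Sphk1, at distances of 1.48 to 2.07, where Mpo and Elane each lay at 1.46 and the median candidate at 4.73. Members form part of the mean that they were measured against, so their own closeness is partly built in. Mpo and Elane are equally distant by construction.

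Markers of the sorted fraction and of other blood cells were compared with this pattern. All 10 stem cell markers, among them Kit, Ly6a, Procr and Hlf, had counts in every library, and their sum was 2449 to 3563 CPM in KO and 3171 to 3334 CPM in WT. Cd34 transcripts were read at 305 to 418 CPM in KO and at 343 and 310 CPM in WT, although the cells were sorted as CD34-negative. The list of mature neutrophil markers, which shares S100a8, S100a9, Mmp8 and Mmp9 with the members, summed to 189, 650, 164 and 2791 CPM in KO 1 to KO 4, against 468 and 167 CPM in WT 1 and WT 2. Of its 11 genes, 8 were highest in KO 4, while Csf3r was highest in WT 1, and Il1r2 and Stfa2l1 in KO 2. Within KO, Il1r2 was lowest in KO 4, and Stfa2l1 had no counts there. Csf3r, which all 6 libraries expressed, gave most of the sum in KO 3 and in WT 2, at 135 and 122 CPM. Ly6g, a marker of the same list that missed the filter on low counts, was at 0, 0, 1.05 and 11.8 CPM in KO 1 to KO 4. It was at 1.93 and 0 CPM in WT 1 and WT 2.

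KO 4 was also highest for other lineages. Monocyte and macrophage markers summed to 207 CPM in KO 4, against 34.2 to 49.2 CPM in KO 1 to KO 3 and 24.5 and 57.0 CPM in WT 1 and WT 2, and all 8 of them were highest there. Erythroid markers summed to 3395 CPM in KO 4, against 664 to 1062 CPM in KO 1 to KO 3 and 756 and 1130 CPM in WT 1 and WT 2, with 7 of 8 highest there. Car2, which was highest in WT 2, gave most of the sum outside KO 4. Without it the sum was 162, 387, 197 and 2607 CPM in KO 1 to KO 4, against 60.6 and 162 CPM in WT 1 and WT 2. Of the 8 erythroid genes, 4 (Hba-a1, Hba-a2, Hbb-bs and Alas2) were higher in every KO library than in both WT libraries. KO and WT libraries were separate, in either direction, in 20.3% of tested genes. None of the 4 passed the threshold (adjusted p from 0.368 to 0.408, edgeR). Eosinophil markers summed to 652 CPM in KO 4, against 2.79 to 56.6 CPM in KO 1 to KO 3 and 334 and 88.0 CPM in WT 1 and WT 2. Basophil and mast cell markers summed to 52.9 CPM in KO 4, against 2.44 to 7.87 CPM in KO 1 to KO 3 and 16.8 and 18.5 CPM in WT 1 and WT 2. Of these 7 genes, 5 were highest in KO 4, and Hdc alone was at 33.8 CPM there. Cpa3 was highest in WT 2, at 7.8 CPM against 4.4 CPM in KO 4, and Fcer1a had counts in WT 2 only. B cell, T cell and megakaryocyte lists were not highest in KO 4. Their part in the level of the granule genes, and that of the low depth and high intron share of KO 4, was not tested.

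**Figure D5:**
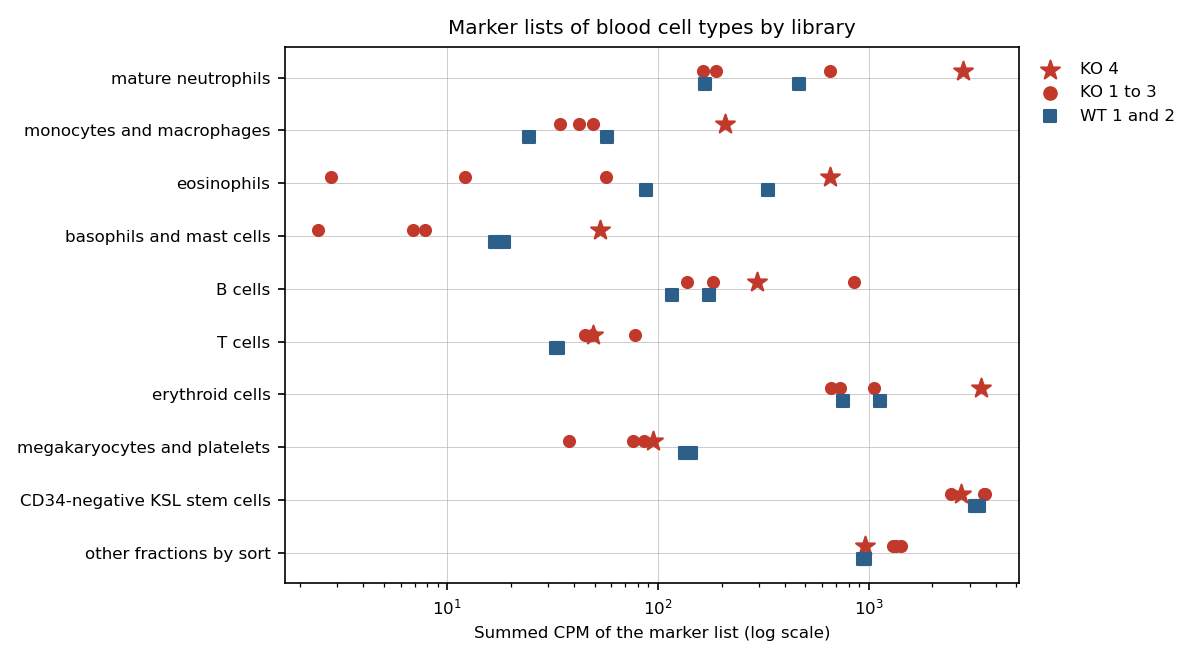
Each row is a marker list and each point the summed CPM of its genes in 1 library on a log scale, KO in red above WT in blue, with KO 4 as a star. KO 4 is the rightmost point for mature neutrophil, monocyte, eosinophil, basophil and erythroid lists, and lies within the other libraries for the stem cell list.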

How the data were processed

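RNA was sequenced from CD34-negative KSL cells in 4 KO and 2 WT libraries. Per the labels, a strand-marking library kit was used; per the submitters' processing notes the build is mm10. For the aligner, the counter and its use of strand: not given in the sources used here. Expression values, as deposited by the authors, are counts: 100% of them equal unique exon reads plus junction reads not placed uniquely. Unique and total exon, junction and intron read counts, exon length and RPKM were deposited too, as were p-values and a signed score of fold change from a test that the file headers name EDGE with tagwise dispersions. Another 48 columns holding values per library were left unused. Table starts were raised by 1.

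The main test on the counts was that of edgeR 4.0.16 under R 4.3.3 (filterByExpr, TMM, quasi-likelihood F test, genotype only, 6 libraries). P-values were adjusted after Benjamini and Hochberg over the 11969 genes kept, with a threshold of 0.05. The SE is the size of the log2 fold change over the square root of F. Alternatives used DESeq2 1.42.0, limma 3.58.1 (voom with sample quality weights), other filters, other read counts, libraries left out and a replicate block. Tables were made with pandas 2.3.3 and figures with matplotlib 3.10.9. The edgeR fit was also run on counts simulated from the mean levels of these data and the common trend of spread. That run did not cover a spread as wide as that of the members. Where a count lies near 0, precision is set by the depth of 2121240 to 5137628 counts per library.

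The members and all lists were chosen with earlier results of these data known. Named were all members, of each companion list the 3 genes of highest mean CPM and any past the threshold, and the 8 genes nearest each profile (mean of at least 1 CPM, log2 CPM with a prior count of 2); other names are marked or are markers. One listed companion, and promoter entries not found, are not analysed here.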

Additional observations from a re-analysis of the deposited data

Results flagged for a closer look

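Among the 4 KO libraries, KO 4 lay far above the others by the gap between it and the next library relative to the whole range, above Dixon's 95% critical value, for 7 of the 10 genes. Lcn2 was at 561 CPM in KO 4 (gap 0.856 of the range), Mmp8 at 82.7 CPM (0.852) and Mmp9 at 106 CPM (0.836). Camp was at 526 CPM (0.848) and Ltf at 1475 CPM (0.845). Mpo was at 2012 CPM (0.937) and Elane at 379 CPM (0.896). Chance alone flags about 1 in 20 groups where values follow a normal distribution. CPM values that spread this widely need not follow one, so the rate here is not known. These 7 flags come from 1 library and are not independent of each other. Ngp, S100a8 and S100a9 were also highest in KO 4 but did not pass the critical value. The 2 WT libraries are too few for such a comparison.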

How the results depend on the processing

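Of the 10 genes, 0 passed the threshold in the edgeR fit, and 0 passed under 15 of the 16 alternatives. The 16 are not all distinct: leaving out KO replicates 3 and 4, and using only replicates 1 and 2 with genotype alone, are the same fit. DESeq2 gave no p for Mpo, and Mmp8 was not fitted without KO replicate 2 or without KO replicate 4. With no filter on low counts the late genes passed, at log2 fold changes of 2.25 (Lcn2), 4.04 (Mmp8), 3.50 (Mmp9), 1.92 (Camp), 2.27 (Ngp), 2.07 (Ltf), 1.90 (S100a8) and 2.13 (S100a9); the prior degrees of freedom of that fit were 157 instead of 6.67. Leaving out 1 library at a time gave -0.07 to 4.43 for Lcn2, 3.18 to 6.27 for Mmp8, 1.34 to 6.65 for Mmp9, -0.22 to 4.86 for Camp, 0.25 to 4.04 for Ngp, -0.03 to 3.92 for Ltf, 0.29 to 4.38 for S100a8, 0.22 to 4.06 for S100a9, -1.64 to 1.06 for Mpo and -2.11 to 0.85 for Elane. Signs of Lcn2, Camp and Ltf turned without KO replicate 4, as did those of Mpo and Elane, and that of Mpo turned without WT replicate 1 (-0.19). Mpo and Elane were also below 0 with limma-voom (-0.93 and -2.24) and without KO replicates 3 and 4 (-1.36 and -1.61); the cause was not tested.

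Over all genes, 11 were called higher and 8 lower in KO. DESeq2 called 61 and 26, limma-voom 3 higher, the fit with no filter 229 and 78, and the fit without KO replicates 3 and 4, which is also the fit of replicates 1 and 2 with genotype alone, 28 and 5. Leaving out 1 library at a time gave 1 to 22 higher and 1 to 8 lower. With the replicate number as a block in these 4 libraries, 29 were higher and 5 lower, and Mpo and Elane were at -1.24 and -1.87. The labels do not say that numbers pair libraries, and the differences of replicate 1 and 2 in KO and in WT had a correlation of -0.094 over 11969 genes. At 1 to 6 counts, Mmp8 and Mmp9 in the low libraries are limited by depth.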
